A study of Mus musculus with 32 samples.

Results

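The genes described here encode the proteins that fold, modify and crosslink collagen. They are the prolyl 4-hydroxylase subunits P4ha1, P4ha2 and P4hb, the lysyl hydroxylases Plod1, Plod2 and Plod3, the chaperones and partners Serpinh1 and Crtap, and the lysyl oxidases Lox and Loxl2. They were taken by gene symbol from the deposited count table, in which 9 of the 10 had a row among 17757 genes. Lox was not analysed here. In the GENCODE annotation Plod1 lies on chromosome 4, Plod3 on 5, Serpinh1 on 7, Plod2 and Crtap on 9, P4ha1 on 10, P4ha2 and P4hb on 11 and Loxl2 on 14. Of the 9, Loxl2 was near the limit of detection and 8 had at least 10 counts in every library, so all results with a fold change are on these 8.

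Collagen chains are modified and folded in the endoplasmic reticulum before they are secreted. Prolyl 4-hydroxylase is a tetramer of catalytic alpha subunits (P4ha1 or P4ha2) and beta subunits (P4hb, which is also protein disulfide isomerase), and its product, 4-hydroxyproline, keeps the triple helix stable at body temperature. Lysyl hydroxylases make the hydroxylysine that carries sugars and takes part in crosslinks, Serpinh1 (HSP47) binds the folded triple helix, and Crtap is part of the complex that hydroxylates single prolines at the 3 position. Lysyl oxidases start the crosslinking of fibres outside the cell. Prolyl and lysyl hydroxylases need oxygen, iron, ascorbate and 2-oxoglutarate, and P4ha1, P4ha2 and Plod2 are known targets of the hypoxia-inducible factor HIF-1.

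The question of the experiment was which mRNAs change their translation when aspartate signals to cancer cells through the NMDA receptor and the hypusination of eIF5A. The material was spheroids of 4T1, a mouse mammary carcinoma line, grown for 5 days in lung-like medium. The conditions were scramble shRNA with 700 μM aspartate (ASP shSCR), scramble shRNA with no added aspartate (NoASP shSCR), and 700 μM aspartate with an shRNA against Grin2d, an NMDA receptor subunit (ASP shGRIN2D), or against Dhps, the deoxyhypusine synthase (ASP shDHPS). Each of the 4 conditions had 4 independent pellets, and each pellet was split on a sucrose gradient into a polysomal fraction (mRNAs with more than 3 ribosomes) and a sub-polysomal fraction (fewer than 3), which gave 32 libraries. All cells, controls included, carried a lentiviral pLKO shRNA vector and were plated on soft agar in lung-like medium. The general culture methods add Matrigel and collagen I to this medium, and whether the spheroids for polysome profiling were grown with them is not given in the sources used here. Total counts ran from 12870563 to 25639437 per library (median 18168765).

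The libraries carried the markers of an epithelial tumor line. Of 7 markers of mammary carcinoma epithelium, 6 were measured, and the keratin Krt8 had on average 1361 CPM (counts relative to library size, scaled by TMM factors) and the adhesion molecule Epcam 522 CPM. Krt5 had no row. Of 6 fibroblast markers, Pdgfrb, Dcn, Lum and Acta2 had no row, whereas Thy1 averaged 138 CPM and Pdgfra 15.5 CPM. The leukocyte gene Ptprc averaged 0.279 CPM, the endothelial gene Pecam1 0.214 CPM and the macrophage gene Cd68 11.6 CPM.

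The silenced genes were examined first. Off polysomes, Dhps was at 9.98, 10.8, 10.2 and 8.96 CPM in ASP shDHPS and at 42.9, 33.2, 43.3 and 41.3 CPM in ASP shSCR. It fell by 2.01 on the log2 scale (SE 0.16, edgeR adjusted p = 1.11e-08) and the groups did not overlap. On polysomes it fell by 1.64 (SE 0.23, edgeR adjusted p = 0.0167), but that call was lost in 3 of the 16 fits that leave out a pellet (replicate 2 of ASP shSCR, replicate 1 or 3 of ASP shDHPS), with an edgeR adjusted p of up to 0.111. Grin2d had few reads, 21 to 126 per library. In ASP shGRIN2D its log2 difference was −0.88 off polysomes (SE 0.29, edgeR adjusted p = 0.232) and −1.14 on polysomes (SE 0.33, edgeR adjusted p = 0.263). Neither passed the threshold of 0.05 after adjustment over all genes (unadjusted p in edgeR 0.0059 and 0.00266). The groups did not overlap in either fraction, with 1.87 to 2.89 CPM in ASP shGRIN2D against 3.32 to 6.91 CPM in ASP shSCR off polysomes, and 1.06 to 2.39 against 2.66 to 4.03 CPM on polysomes.

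Some libraries stood apart. On a scale on which the average sub-polysomal library lies at 0 and the average polysomal library at 1, computed over 11046 genes, replicate 1 of ASP shSCR had its polysomal library at 0.373, whereas the remaining polysomal libraries ranged from 0.777 to 1.27. In addition, ASP shSCR replicate 2 and NoASP shSCR replicate 2 had high levels of hypoxia response genes in both fractions. Several differences that moved when these pellets were left out are also given without them.

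The members differed widely in abundance. Per kilobase of the longest annotated transcript, P4hb was the most abundant in both fractions, with means of 316 CPM per kb in the polysomal and 228 CPM per kb in the sub-polysomal libraries. Serpinh1 followed with 160 and 89.8 CPM per kb, then Crtap with 54.4 and 72.5 and Plod3 with 39.6 and 28.0. P4ha1 had 18.6 and 8.41 CPM per kb, Plod1 6.58 and 3.09, Plod2 6.25 and 3.48, and P4ha2 2.14 and 1.31. On this scale the beta subunit stood far above both catalytic alpha subunits, and P4ha1 above P4ha2. Among 17305 genes with a known length, P4hb and Serpinh1 stood at percentiles 98.5 and 97.1 of the polysomal levels, and P4ha2 at percentile 44.6.

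Loxl2, a lysyl oxidase that acts outside the cell, was barely detected. It had 0 counts in 12 of 32 libraries, more than 3 counts in 7, and at most 17. No fold change is given for it.

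**Figure D1:**
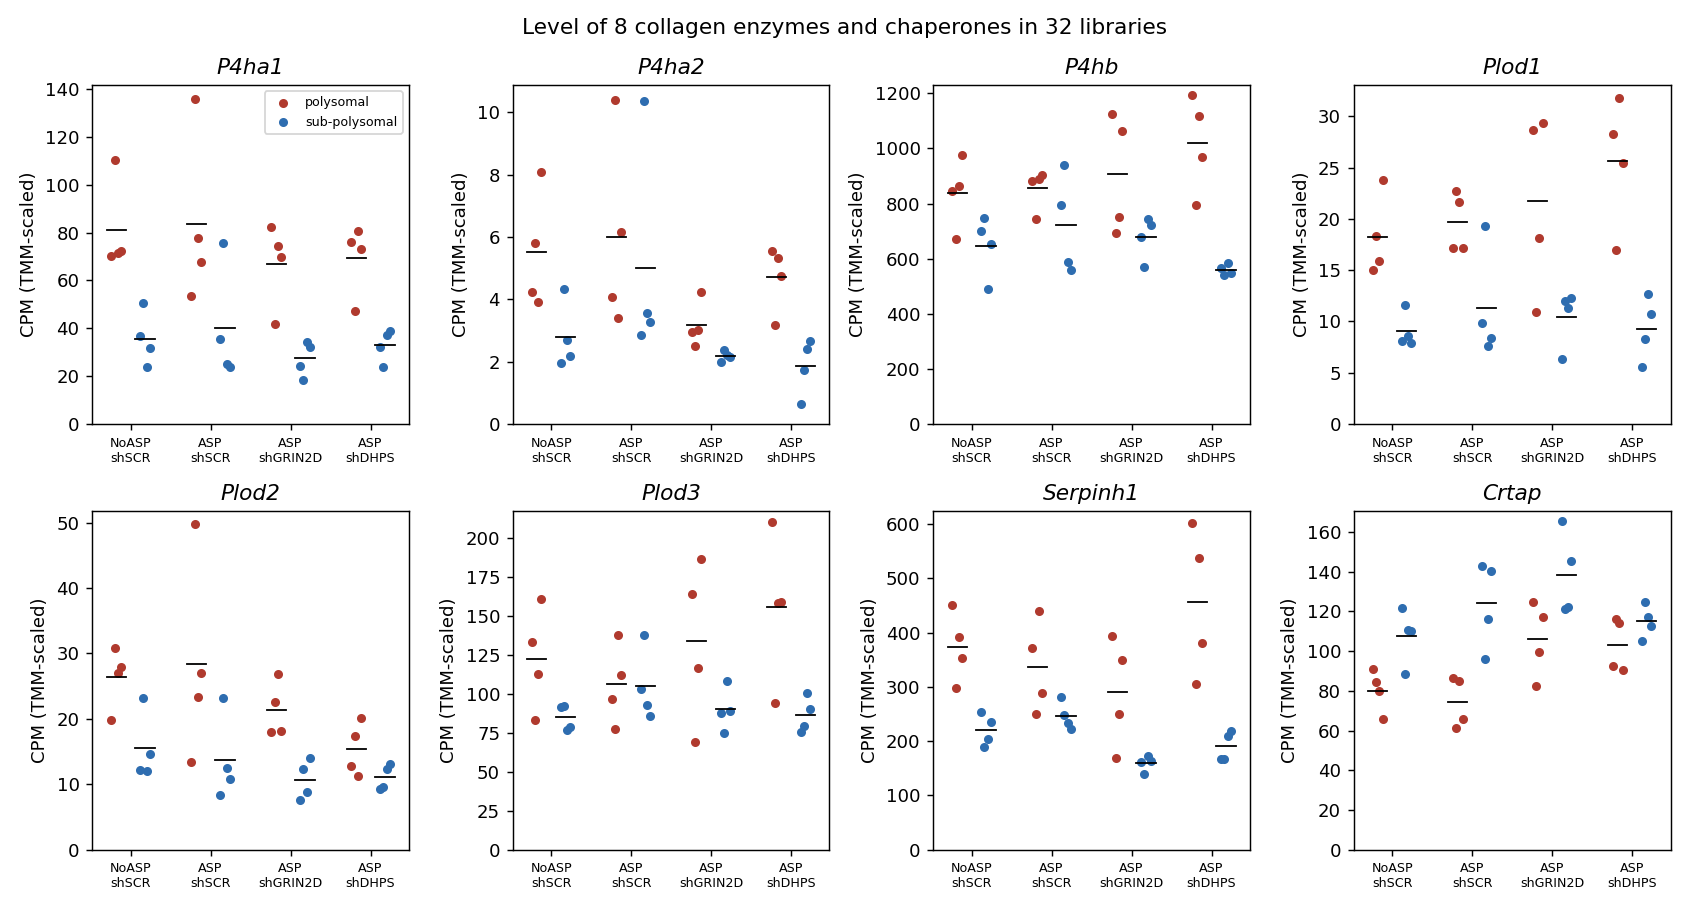
Level of each member in every library. The y axis of each panel is CPM scaled by TMM factors, starting at 0, the x axis is the condition, red points are the 4 polysomal and blue points the 4 sub-polysomal libraries, and black bars are means. P4ha1 is above the other libraries of its fraction in replicate 2 of ASP shSCR (135.8 CPM polysomal, 75.4 CPM sub-polysomal), and Crtap is the only panel in which the sub-polysomal means lie above the polysomal means in all 4 conditions.

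Most of the members had higher levels in the polysomal than in the sub-polysomal libraries. Levels are relative to each library, so a level that is higher on polysomes does not give the split of the mRNA between fractions. Over the 4 conditions, 7 of the 8 had a higher level in the polysomal than in the sub-polysomal fraction and 1, Crtap, a lower level. All 8 passed the threshold, where 62.6% of all genes did in either direction, 31.5% in the higher and 31.1% in the lower direction. Among the 11046 genes that reach 10 counts in all libraries, as the 8 members do, the share was 81.5%. Of these genes 5037 were higher and 3970 lower on polysomes. The median log2 ratio was 0.80 for the 8 members and −0.06 for all genes. Among those 11046 genes the median was 0.15.

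Among the prolyl 4-hydroxylase subunits, P4ha1 had the highest ratio. Its polysomal levels were 70.3, 110.2, 71.5 and 72.2 CPM in NoASP shSCR, 53.5, 135.8, 77.7 and 67.7 in ASP shSCR, 82.1, 41.9, 74.3 and 69.6 in ASP shGRIN2D, and 76.1, 47.2, 80.5 and 73.2 in ASP shDHPS. Its sub-polysomal levels were 36.8, 50.5, 23.7 and 31.6 CPM in NoASP shSCR, 35.6, 75.4, 25.1 and 23.9 in ASP shSCR, 24.5, 18.6, 34.5 and 32.04 in ASP shGRIN2D, and 31.9979, 23.9, 37.2 and 39.0 in ASP shDHPS. The polysomal library was the higher of the pair in 16 of 16 pellets, with a mean log2 ratio of 1.17 (SE 0.09, edgeR adjusted p = 1.07e-11), which is 2.26-fold. P4ha2, the less abundant alpha subunit, had a log2 ratio of 0.81 (SE 0.16, edgeR adjusted p = 7.12e-05) and was higher on polysomes in 15 of 16 pellets. P4hb had a smaller ratio of 0.48 (SE 0.10, edgeR adjusted p = 0.000178), with 14 of 16 pellets in that direction.

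The lysyl hydroxylases followed the same direction. Plod1, which acts on the helical part of collagen, had a mean log2 ratio of 1.09 (SE 0.14, edgeR adjusted p = 7.88e-08). Plod2, which hydroxylates the telopeptides where crosslinks form, had 0.82 (SE 0.10, edgeR adjusted p = 5.77e-08). Both were higher on polysomes in 15 of 16 pellets. Plod3, which also transfers sugars to hydroxylysine, had the smallest positive ratio, 0.45 (SE 0.12, edgeR adjusted p = 0.00192), and was higher on polysomes in 12 of 16 pellets.

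The chaperone and the 3-hydroxylation partner went in opposite directions. Serpinh1 had a log2 ratio of 0.80 (SE 0.10, edgeR adjusted p = 9.01e-08) and was higher on polysomes in 16 of 16 pellets. The ratio of Crtap was negative in all 16 pellets, from −1.10 to −0.04, with a mean of −0.43 (SE 0.08, edgeR adjusted p = 3.89e-05). Its scaled level in the sub-polysomal libraries was 1.345-fold that in the polysomal libraries.

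**Figure D2:**
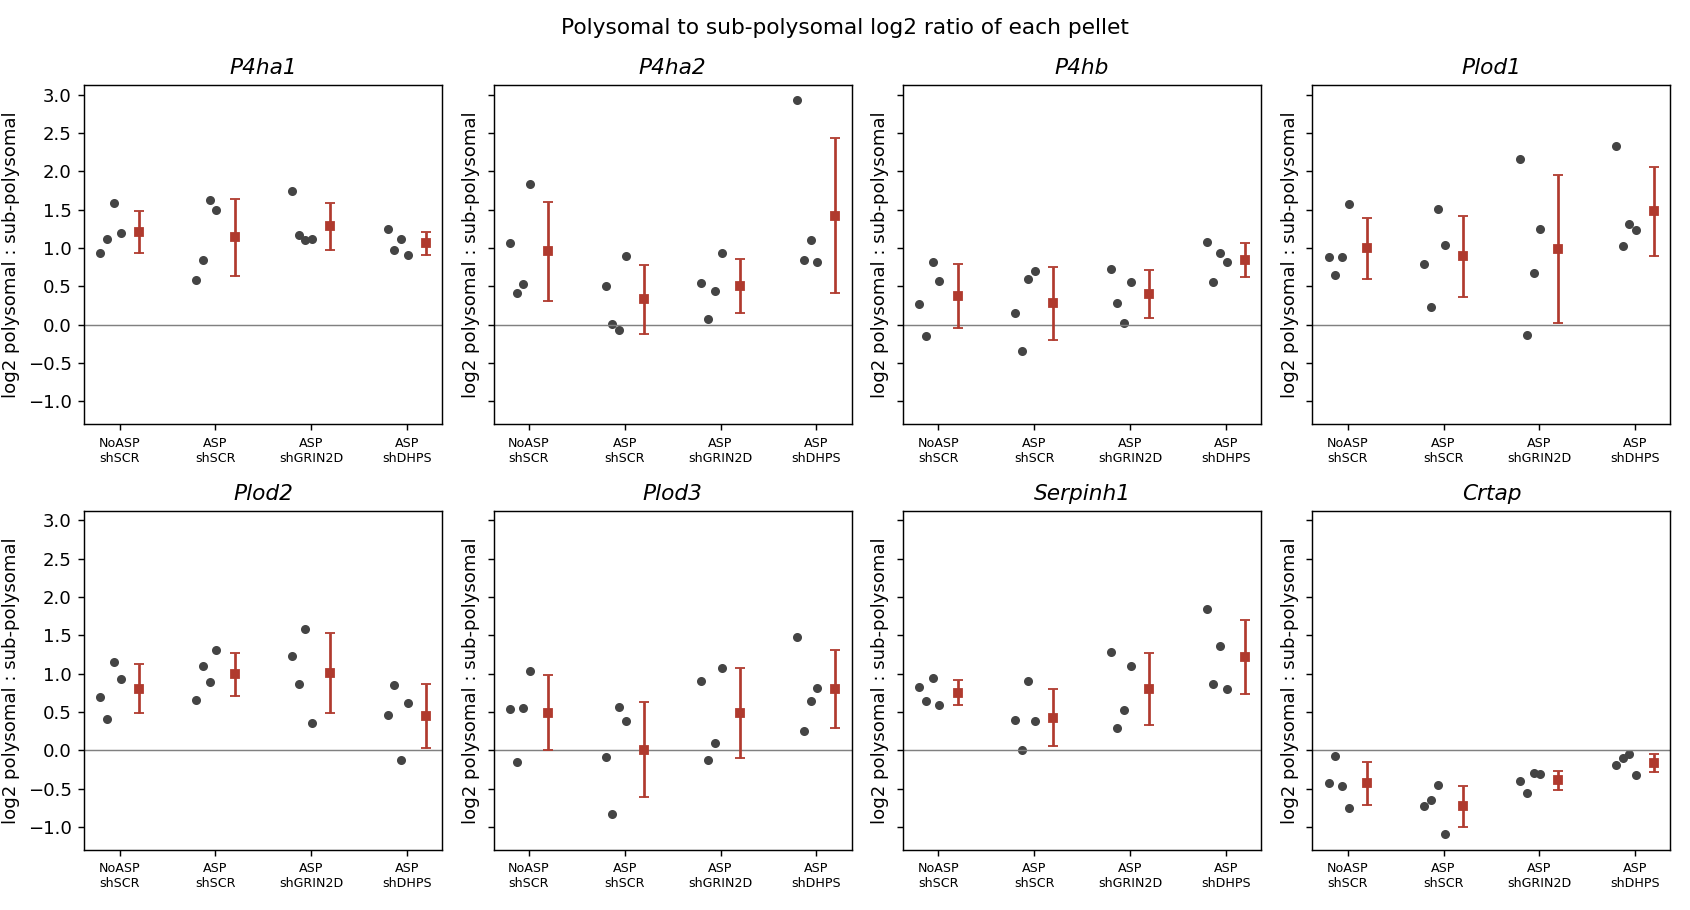
Polysomal to sub-polysomal log2 ratio of each pellet. The y axis is the log2 ratio (prior count of 2), the x axis the condition, grey points are the 4 pellets of a condition and red squares with bars are the mean ± SD. All 16 pellets of P4ha1 and of Serpinh1 lie above 0, and all 16 pellets of Crtap lie below 0, from −1.10 to −0.04.

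The calls were kept in 2 fits that each left out some of the libraries that stood apart. With ASP shSCR replicates 1 and 2 left out, the log2 ratio was 1.24 for P4ha1, 0.52 for Plod3 and −0.48 for Crtap, and all 8 members passed the threshold, as they did with all 4 pellets numbered 2 left out. No fit left out all 3 pellets that stood apart. Where scaling within each fraction replaced scaling over all libraries, the median of all genes moved from −0.06 to 0.08, and the 8 members kept their directions and calls. The mean log2 ratio of Crtap was then −0.28. The ratios of single pellets given here use scaling over all libraries.

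Other genes of collagen biosynthesis also went in both directions. Of 34 listed genes, 28 were measured, of which 18 were higher and 7 lower on polysomes, and 3 did not pass the threshold, with a median log2 ratio of 0.53. Over all genes, 31.5% were higher and 31.1% lower. Among those with the largest values, Pcolce, which enhances removal of the procollagen C-propeptide, had a log2 ratio of 1.59 (SE 0.13), and Sparc, a collagen-binding matricellular protein, 1.49 (SE 0.11). Mia2, which helps to load procollagen into large transport carriers, had −1.59 (SE 0.14), and Tmem38b, an endoplasmic reticulum cation channel, −1.64 (SE 0.19). The edgeR adjusted p was 2.02e-08 for Tmem38b and lower for the other 3. P3h1, the enzyme to which Crtap binds, had a log2 ratio of 1.08 (SE 0.12, edgeR adjusted p = 4.39e-09), and Ppib, the cyclophilin of the same complex, 0.12 (SE 0.11, edgeR adjusted p = 0.336), and these partners were picked out after the values were seen. The ratios of Crtap and P3h1 thus had opposite signs. Of 14 collagen chain genes, 10 were measured and 7 were higher on polysomes, with none lower and 3 not past the threshold. The largest were Col18a1 with 1.54 (SE 0.14), Col16a1 with 1.25 (SE 0.15) and Col6a1 with 0.87 (SE 0.13), all past the threshold (edgeR adjusted p at most 1.46e-06).

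The comparison of ASP shSCR with NoASP shSCR asked whether added aspartate changed these ratios. With edgeR, no member passed the threshold, where the share over all genes was 0%. No member had an unadjusted p under 0.05, as 1.93% of all genes did, DESeq2 called no member and no other gene, and the pellets of the conditions overlapped for all 8, where 1.7% of all genes had no overlap. The log2 ratios of P4ha2 were 1.06, 0.41, 0.53 and 1.83 in NoASP shSCR and 0.50, 0.00, −0.07 and 0.90 in ASP shSCR. These values overlapped, and the difference was −0.63 (SE 0.44, edgeR adjusted p = 1), and −0.34 without NoASP shSCR replicate 4. Plod3 had −0.48 (SE 0.34, edgeR adjusted p = 1), but −0.04 without ASP shSCR replicates 1 and 2. Plod2 was the only member with a positive difference, 0.20 (SE 0.28, edgeR adjusted p = 1), and this was 0.06 without NoASP shSCR replicate 2. Of the 8 members, 1 had a positive and 7 a negative difference, with a median of −0.20, against a median of −0.02 over all genes. Related lists were also shifted downward. The median was −0.19 for 28 other collagen biosynthesis genes, −0.54 for 10 collagen chain genes and −0.18 for 6 epithelial markers. For 20 hypoxia response genes it was −0.04.

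The levels in each fraction gave the same picture for aspartate. No member was called in the polysomal or in the sub-polysomal libraries, where the share over all genes was 0% in both, and none of the 8 had groups without overlap (1.37% of all genes on polysomes, 3.33% off polysomes). The sub-polysomal level of P4ha2 was 1.97, 4.33, 2.69 and 2.19 CPM in NoASP shSCR and 2.84, 10.4, 3.56 and 3.26 CPM in ASP shSCR. The replicate 2 libraries were the highest of both groups. The log2 difference was 0.84 (SE 0.39, edgeR adjusted p = 0.848), and 0.20 without ASP shSCR replicate 2. It was the only member with an unadjusted p under 0.05 in that fraction, where 4.91% of all genes had one, and there was none in the polysomal libraries, where 7.75% did. In bulk RNA of this kind, a change in the share of cells that express a gene and a change in RNA per cell cannot be told apart.

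The comparisons of the knockdowns with ASP shSCR asked what the loss of each signalling component did under aspartate. They use the same ASP shSCR libraries as the comparison above, so that 1 deviating control pellet enters all of them.

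In ASP shGRIN2D, no member passed the threshold for a difference in ratio (0% of all genes with edgeR, 0 members and 3.22% of all genes with an unadjusted p under 0.05, 0 of both with DESeq2), and none of the 8 had groups without overlap, where 1.96% of all genes did. The 8 log2 differences ran from 0.02 to 0.48, with a median of 0.16 against 0.01 over all genes. The median was 0.25 for 28 other collagen biosynthesis genes, 0.46 for 10 collagen chain genes and 0.35 for 6 epithelial markers. For 20 hypoxia response genes it was −0.04. The largest differences of the 8 members were those of Plod3, 0.48 (SE 0.34, edgeR adjusted p = 1), and Serpinh1, 0.38 (SE 0.29, edgeR adjusted p = 1). Without ASP shSCR replicates 1 and 2 they were 0.05 and 0.20.

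The level of Serpinh1 in the sub-polysomal fraction came closest to the threshold. It was 161.9, 139.2, 173.2 and 162.6 CPM in ASP shGRIN2D and 281.7, 247.6, 233.3 and 222.2 CPM in ASP shSCR. The groups did not overlap. The NoASP shSCR libraries, which also have scramble shRNA, had 253.8, 189.5, 204.1 and 234.7 CPM, all above those of ASP shGRIN2D. The log2 difference was −0.63 (SE 0.15) with an edgeR adjusted p of 0.0562, so that it did not pass, and DESeq2 gave an adjusted p of 0.00111. With the test restricted to genes that reach 10 counts throughout, the edgeR adjusted p was 0.0374. Without ASP shSCR replicate 1 the difference was −0.57 (edgeR adjusted p = 0.178). In the polysomal libraries Serpinh1 had a log2 difference of −0.29 (SE 0.28, edgeR adjusted p = 0.854).

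P4ha2 was the other member whose sub-polysomal levels did not overlap in that comparison, with 1.99, 2.37, 2.22 and 2.17 CPM in ASP shGRIN2D against 2.84, 10.4, 3.56 and 3.26 CPM in ASP shSCR. The NoASP shSCR libraries, at 1.97 to 4.33 CPM, overlapped both groups. The log2 difference from ASP shSCR was −1.20 (SE 0.40, edgeR adjusted p = 0.228), and −0.55 without ASP shSCR replicate 2. In the polysomal libraries it was −0.98 (SE 0.34, edgeR adjusted p = 0.325), and −0.60 without that pellet. Thus 2 of the 8 members did not overlap in the sub-polysomal libraries, where 5.47% of all genes did not, and none of the 8 in the polysomal libraries, where the share was 2.6%. In this comparison edgeR called 0.315% of all genes in the sub-polysomal and 0.0169% in the polysomal libraries, and 0 of the members in both. At an unadjusted p under 0.05 there were Serpinh1 and P4ha2 in the sub-polysomal libraries, as were 1955 of 17757 genes, and P4ha2 in the polysomal libraries, as were 1608 genes. DESeq2 called 1 member, Serpinh1, in the sub-polysomal libraries and 0 in the polysomal libraries, where it called 224 and 73 genes in all.

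P4ha1 illustrates how much a single pellet weighed. Its sub-polysomal log2 difference in ASP shGRIN2D was −0.56 (SE 0.28, edgeR adjusted p = 0.461), −0.03 without ASP shSCR replicate 2, and 0.17 without ASP shSCR replicates 1 and 2.

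In ASP shDHPS, the ratios of 6 of the 8 members were above those in ASP shSCR and 2 were below, but none passed the threshold, where 0.208% of all genes did. The median of the 8 log2 differences was 0.58, against −0.01 over all genes. Related lists were shifted in the same direction. The median was 0.36 for 28 other collagen biosynthesis genes, 0.40 for 10 collagen chain genes and 0.55 for 6 epithelial markers. For 20 hypoxia response genes it was 0.17. Without ASP shSCR replicates 1 and 2, the differences of P4hb, Plod1, Plod3 and Serpinh1 were 0.24, 0.24, 0.36 and 0.61. Those of P4ha2 and Crtap were then 1.03 and 0.655, and those of P4ha1 and Plod2 −0.46 and −0.62. At an unadjusted p under 0.05 there were 4 members (P4ha2, Plod3, Serpinh1 and Crtap), as were 13.6% of all genes, and DESeq2 called 1, Crtap, and 5.58% of the genes to which it gave an adjusted p.

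Crtap was the member whose ratios did not overlap. The log2 ratios of its pellets were −0.18, −0.10, −0.04 and −0.32 in ASP shDHPS and −0.72, −0.65, −0.45 and −1.10 in ASP shSCR. All pellets of ASP shDHPS thus had less negative ratios than those of ASP shSCR. The ratio is relative to the scaling of the libraries, so it does not give the split of the mRNA between fractions. The log2 difference was 0.57 (SE 0.23, edgeR adjusted p = 0.259), and DESeq2 gave 0.61 with an adjusted p of 0.0364. The NoASP shSCR pellets, with −0.42, −0.07, −0.47 and −0.75, overlapped both. The share of all genes with no overlap in this comparison was 6.86%. The polysomal level of Crtap was 92.4, 116.1, 114.0 and 90.7 CPM in ASP shDHPS and 86.6, 61.3, 85.0 and 65.7 CPM in ASP shSCR, which again did not overlap (5.25% of all genes), with a log2 difference of 0.39 (SE 0.20, edgeR adjusted p = 0.34).

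Serpinh1 also had higher mean ratios in ASP shDHPS. Its log2 ratios were 1.84, 0.86, 1.36 and 0.81 in ASP shDHPS and 0.40, 0.01, 0.91 and 0.38 in ASP shSCR. The groups overlapped by the ASP shSCR pellet at 0.91. The difference was 0.79 (SE 0.29, edgeR adjusted p = 0.21), and DESeq2 gave an adjusted p of 0.0511. The polysomal level had a log2 difference of 0.37 (SE 0.28, edgeR adjusted p = 0.537) and the sub-polysomal level one of −0.37 (SE 0.15, edgeR adjusted p = 0.217), so that the 2 fractions contributed in opposite directions. The sub-polysomal values did not overlap, with 167.8, 167.5, 209.2 and 217.9 CPM in ASP shDHPS, but NoASP shSCR, at 189.5 to 253.8 CPM, overlapped these. Without ASP shSCR replicates 1 and 2 the ratio difference was 0.61 and the sub-polysomal one −0.26.

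P4ha2 had the largest ratio difference, 1.08 (SE 0.45, edgeR adjusted p = 0.276). The log2 ratio was 2.93, 0.84, 1.11 and 0.81 in the 4 pellets of ASP shDHPS, and without the pellet at 2.93 the difference was 0.62. That pellet had the lowest sub-polysomal level of P4ha2, 0.639 CPM from 13 counts, so its ratio rests on few reads. The sub-polysomal levels, 0.639, 1.73, 2.41 and 2.65 CPM, lay below all 4 of ASP shSCR. They overlapped those of NoASP shSCR, at 1.97 to 4.33 CPM. The log2 difference from ASP shSCR was −1.44 (SE 0.40, edgeR adjusted p = 0.0665), with a DESeq2 adjusted p of 0.02 and an edgeR adjusted p of 0.0468 under the same restriction. Without ASP shSCR replicate 2 the difference was −0.80 (edgeR adjusted p = 0.448). Thus 2 of the 8 members, P4ha2 and Serpinh1, had sub-polysomal levels without overlap, where 9.29% of all genes did.

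None of the lysyl hydroxylases passed the threshold, and their differences had both signs. Plod3 had a ratio difference of 0.79 (SE 0.34, edgeR adjusted p = 0.298), which was 0.36 without ASP shSCR replicates 1 and 2, and Plod1 one of 0.59 (SE 0.38, edgeR adjusted p = 0.511), which was 0.24 without these pellets and 0.31 without ASP shDHPS replicate 1. Plod2 had a negative one, −0.55 (SE 0.29, edgeR adjusted p = 0.403), which was −0.36 without ASP shDHPS replicate 3. The polysomal levels of Plod2 were 12.8, 17.4, 11.3 and 20.2 CPM in ASP shDHPS and 13.4, 49.7, 23.3 and 27.0 CPM in ASP shSCR. The log2 difference was −0.92 (SE 0.29, edgeR adjusted p = 0.135), and −0.52 without ASP shSCR replicate 2. P4hb had a ratio difference of 0.57 (SE 0.29, edgeR adjusted p = 0.388) and P4ha1 one of −0.08 (SE 0.26, edgeR adjusted p = 0.94), and without ASP shSCR replicates 1 and 2 these were 0.24 and −0.46. Among the levels in ASP shDHPS, edgeR called 0 members in the polysomal libraries, where it called 0.169% of all genes (0.0113% higher and 0.158% lower), and 0 in the sub-polysomal libraries, where it called 1.41% (0.439% higher and 0.974% lower). At an unadjusted p under 0.05 there were 1 member in the polysomal libraries (Plod2), as were 2905 of 17757 genes, and 3 in the sub-polysomal ones (P4ha2, P4hb and Serpinh1), as were 2833 genes. DESeq2 called 0 members and 554 genes on polysomes, and 1 member, P4ha2, and 651 genes off polysomes. The sub-polysomal difference of P4hb was −0.37 (SE 0.18, edgeR adjusted p = 0.304), and −0.04 without ASP shSCR replicates 1 and 2.

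**Figure D3:**
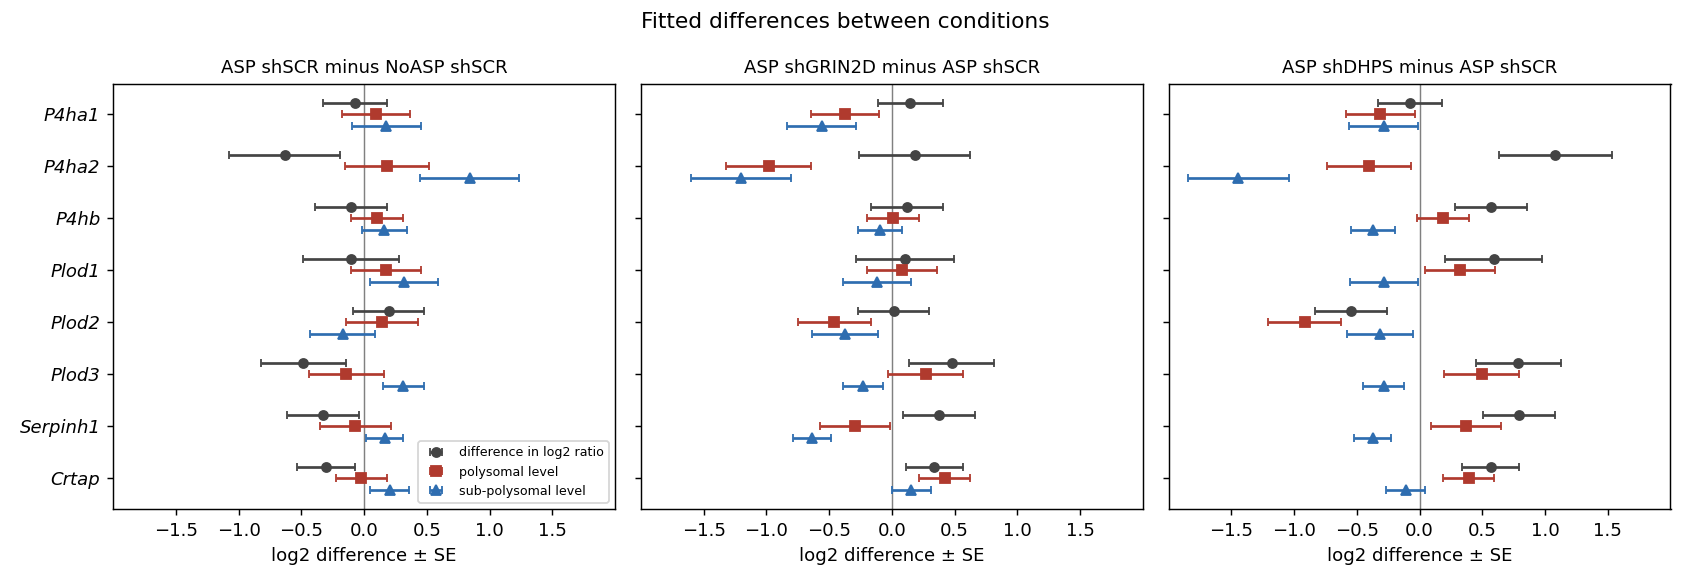
Fitted log2 differences between conditions for the 8 members. The x axis is the log2 difference with bars of ± 1 SE, circles are differences in the polysomal to sub-polysomal ratio, squares are polysomal levels and triangles are sub-polysomal levels. None of the 72 values passed an edgeR adjusted p of 0.05, and the value furthest from 0 is the sub-polysomal P4ha2 level in ASP shDHPS, −1.44.

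For the other collagen genes, the comparisons were as sparse. Among 28 measured collagen biosynthesis genes, none changed its ratio in any of the 3 comparisons by edgeR, and 1, Pcolce, changed its level. Off polysomes it fell by 0.82 on the log2 scale in ASP shGRIN2D (SE 0.18, edgeR adjusted p = 0.027) and fell by 1.4005 in ASP shDHPS (SE 0.18, edgeR adjusted p = 0.000109). The former was lost in 5 of the 16 fits that leave out a pellet (edgeR adjusted p up to 0.115) and without ASP shSCR replicates 1 and 2 (−0.50, edgeR adjusted p = 0.641), whereas the latter was kept in all 16 fits and without both pellets (−1.10, edgeR adjusted p = 0.0173). No collagen chain gene was called in any comparison. Of the 6 measured epithelial markers, Krt8, Krt18 and Krt14 also fell off polysomes in ASP shDHPS, by 0.74, 1.00 and 0.78 on the log2 scale (edgeR adjusted p = 0.049, 0.032 and 0.00461), where 0.974% of all genes fell. Epcam (−0.54), Cdh1 (0.29) and Cldn4 (0.01) did not pass the threshold, and the markers thus had both signs. The part of the keratins in the values of the members was not tested.

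Several members were highest in the same pellets. In the polysomal libraries, P4ha1 was highest in ASP shSCR replicate 2 (135.8 CPM) and NoASP shSCR replicate 2 (110.2 CPM), with all other libraries at 82.1 CPM or less. In the sub-polysomal libraries the same 2 pellets had 75.4 and 50.5 CPM, with the others at 39.0 CPM or less. Plod2 had its 2 highest values in the same pellets, 49.7 and 30.9 CPM in the polysomal and 23.1 and 23.2 CPM in the sub-polysomal libraries. P4ha2 was highest there in the sub-polysomal libraries, with 10.4 and 4.33 CPM and all others at 3.56 CPM or less, but in the polysomal libraries NoASP shSCR replicate 4 (8.08 CPM) came second. P4hb (941.7 CPM), Plod1 (19.3 CPM) and Plod3 (137.8 CPM) also had their highest sub-polysomal value in ASP shSCR replicate 2, though not in the polysomal libraries.

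The same pellets carried high levels of hypoxia response genes. A list of 20 such genes, including the carbonic anhydrase Car9, the glucose transporter Slc2a1 and the stress gene Ddit4, had a mean log2 CPM in ASP shSCR replicate 2 that was above the average of its fraction by 0.96 in the polysomal and 1.09 in the sub-polysomal library. In NoASP shSCR replicate 2 the values were 0.64 and 0.68, and the other 28 libraries lay between −0.38 and 0.08. The summed level of the list was 4904 CPM in the sub-polysomal library of ASP shSCR replicate 2, where Aldoa was its most abundant gene, and 3762 CPM in that of NoASP shSCR replicate 2, whereas the next highest sub-polysomal sum was 2693 CPM. On polysomes the sums did not set these pellets apart, with 7400 CPM in ASP shSCR replicate 2 and 6080 CPM in NoASP shSCR replicate 2 against 7966 CPM in ASP shDHPS replicate 1. Car9 was also highest on polysomes in ASP shDHPS replicate 1 (50.03 CPM). Of the 20 genes, 8 had their 2 highest polysomal and 12 their 2 highest sub-polysomal values in these pellets, against 2.62% and 3.87% of the 11046 genes, and of the 8 members 2 and 3 did. In the knockdowns, 17 of the 20 genes had a negative sub-polysomal difference in ASP shGRIN2D and 18 in ASP shDHPS. Over all 17757 genes, 8766 and 8641 did. The reference group of both comparisons holds ASP shSCR replicate 2, whose hypoxia genes were high. The part of this pellet in these counts was not tested. In ASP shDHPS, Ddit4 fell by 1.12 (SE 0.28, edgeR adjusted p = 0.038). That call was lost in 5 of the 16 fits that leave out a pellet, and the difference was −0.49 without ASP shSCR replicate 2 (edgeR adjusted p = 0.364). Over the 4 conditions, 13 of the 20 genes were higher on polysomes, 5 were lower and 2 did not pass, with the adrenomedullin gene Adm at a log2 ratio of 2.04, the glycolytic gene Tpi1 at 1.70 and Egln1, a prolyl hydroxylase that acts on HIF, at −2.13 (edgeR adjusted p at most 8.84e-09). The pair of pellets was picked out after the values were seen, so these shares are a description. Both scramble conditions hold 1 such pellet, both numbered 2, and neither knockdown condition holds one.

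The resemblance of single members to the hypoxia list depended on these pellets. With values centred within each fraction, Pearson's r with the mean of the list was 0.81 over 32 libraries and 0.45 over the 28 others for P4ha1, 0.67 and 0.07 for P4ha2, and 0.61 and −0.42 for Plod2. For the other 5 members it was higher over the 28 libraries, at 0.23 and 0.57 for P4hb, 0.04 and 0.58 for Plod3, 0.46 and 0.52 for Plod1, 0.02 and 0.44 for Serpinh1, and −0.41 and 0.33 for Crtap. Crtap had its lowest sub-polysomal values in the pellets with high hypoxia genes (88.4 CPM in NoASP shSCR replicate 2 and 96.1 CPM in ASP shSCR replicate 2) and its lowest polysomal value in ASP shSCR replicate 2 (61.3 CPM), but not in NoASP shSCR replicate 2 (84.4 CPM). The polysomal and sub-polysomal libraries come in pairs from the same pellets, and the coefficients are given as a description.

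**Figure D4:**
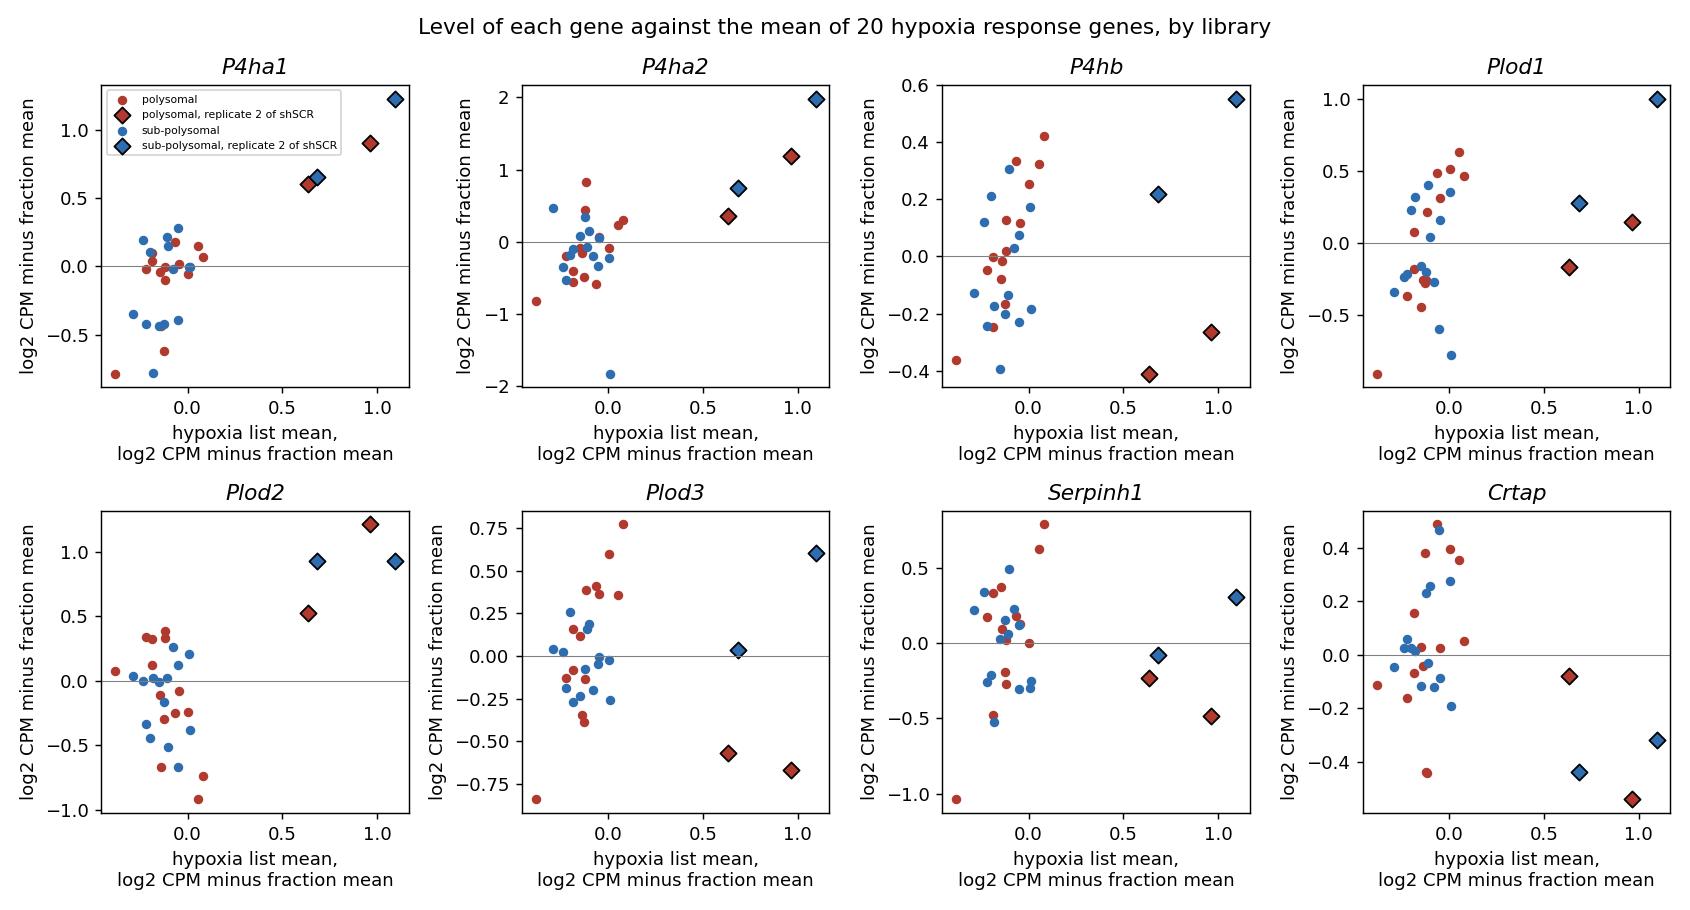
Level of each member against the hypoxia response list, by library. Both axes are log2 CPM minus the mean of the same fraction, the x axis for the mean of 20 hypoxia response genes and the y axis for the member, with red for polysomal and blue for sub-polysomal libraries, and diamonds for replicate 2 of ASP shSCR and NoASP shSCR. The diamonds lie at 0.64 to 1.09 on the x axis and the other libraries at −0.38 to 0.08, and P4ha1 and Plod2 are highest in the diamonds in both fractions.

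The genes most similar to each member in pattern, by Pearson's r over all 32 libraries centred within fraction and among genes with a mean of at least 50 counts, were the following. P4ha1 resembled Bhlhe40 (0.78) and Kctd11 (0.71), P4ha2 Unc13a (0.83) and Ddit4 (0.77), and Plod2 Ccdc181 (0.83) and Nampt (0.83). These coefficients include the pellets named above and were not computed without them. Plod1 resembled Ndrg1 (0.84) and Cnppd1 (0.82), P4hb Oxa1l (0.86) and Gm12715 (0.86), Plod3 Ccar2 (0.93) and Rtkn (0.93), Serpinh1 Aaas (0.88) and Arhgef1 (0.88), and Crtap Tmem158 (0.84) and Rab11b (0.82). Ddit4 and Ndrg1 are themselves members of the hypoxia list.

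The sequences before the start sites of P4ha1 and P4ha2, which had their highest sub-polysomal values in the pellets with high hypoxia genes, and of Crtap, which had its lowest sub-polysomal values there, are shown because HIF binds the core letters ACGTG or GCGTG. RefSeq promoter windows (GRCm38.p6) matched 7 of the 10 members, and Plod2, Lox and Loxl2 had no matching entry. The 250 bases before the start are printed 5′ to 3′ in the direction of the gene, with matches to either motif, on either strand, in capitals.
P4ha1, chr10:59323046-59323295, plus strand: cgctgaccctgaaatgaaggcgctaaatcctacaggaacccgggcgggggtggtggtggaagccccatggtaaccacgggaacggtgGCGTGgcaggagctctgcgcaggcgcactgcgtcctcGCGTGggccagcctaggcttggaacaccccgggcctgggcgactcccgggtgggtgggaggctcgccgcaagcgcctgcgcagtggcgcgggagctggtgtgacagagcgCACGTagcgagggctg
P4ha2, chr11:54100674-54100923, plus strand: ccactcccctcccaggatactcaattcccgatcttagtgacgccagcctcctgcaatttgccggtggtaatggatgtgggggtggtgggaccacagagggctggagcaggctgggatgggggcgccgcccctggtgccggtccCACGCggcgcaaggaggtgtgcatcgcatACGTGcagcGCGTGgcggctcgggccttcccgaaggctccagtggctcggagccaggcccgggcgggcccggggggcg
Crtap, chr9:114390713-114390962, minus strand: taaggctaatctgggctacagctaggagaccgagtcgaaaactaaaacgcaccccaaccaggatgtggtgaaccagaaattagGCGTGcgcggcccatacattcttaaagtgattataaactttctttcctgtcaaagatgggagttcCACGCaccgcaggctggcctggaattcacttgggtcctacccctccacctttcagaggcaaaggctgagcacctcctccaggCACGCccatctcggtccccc
P4ha1 had 3 matches, whose first bases lay 163, 126 and 16 bases before the start. P4ha2 had 3, at 107, 78 and 69 bases, and Crtap had 3 as well, at 167, 102 and 20 bases. Overlapping matches, as in CACGTG, count as 2, and these 3 windows held none. At least 1 match was present in all 7 members with a window and in 38.6% of 32851 windows of all genes, and the 3 genes shown had the same number. Among the members not shown, Plod3 had 4 matches, P4hb 2, and Plod1 and Serpinh1 1 each. A match is a description of letters and not a bound site.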

How the data were processed

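Polysomal and sub-polysomal RNA was sequenced as stranded mRNA libraries (paired 150-base reads, per the methods). The authors trimmed reads with Trim Galore 0.6.6, aligned them to GRCm39 with STAR 2.6.1, quantified genes with Salmon 1.4.0, rounded the estimates and filtered genes, and deposited the resulting count table. Tables of the authors' own differences in ratio, p-values and gene set scores were not used. Counts were fitted with edgeR 4.0.16 in R 4.3.3 (quasi-likelihood, TMM scaling, Benjamini-Hochberg adjustment over 17757 genes, threshold 0.05). Ratios were fitted over 32 libraries with a term per pellet, which pairs the fractions of a pellet as the methods state, and a ratio per condition. Levels were fitted over the 16 libraries of each fraction. Pellet ratios and log2 CPM used a prior count of 2. DESeq2 1.42.0 was an alternative. The test scripts were tested on simulated data with known changes in ASP shDHPS. For the ratio, edgeR recovered 19 of 100 genes changed 2-fold and 88 of 100 changed 3-fold. For polysomal levels it recovered 56 and 99 of 100. The simulated spread was a set value and was not estimated from these data. A member that was not called is thus not shown to be unchanged. Transcript lengths came from GENCODE M21 (GRCm38), for 97.5% of genes, and no coordinate of GRCm39 was converted.

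The members, the gene lists and the pellets left out were chosen with earlier results of these data known. The text names all members, the silenced genes, and from each further list the called genes with the largest differences, up to a fixed number per comparison. P3h1 and Ppib, the partners of Crtap, were named outside this rule after their values were seen. The cell type markers, the hypoxia genes Car9, Slc2a1 and Aldoa, and the genes most similar to each member were also named outside it. Pellets are separate spheroid preparations of polyclonal lines, so the spread is between cultures. Whether the pellets of a knockdown came from separate transductions is not given in the sources used here. The loss of the gene and other differences between the transduced lines cannot be told apart.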

Additional observations from a re-analysis of the deposited data

Results flagged for a closer look

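In 8 of 104 groups of 4 values, 1 sample lay apart from the other 3 by the 95% criterion of Dixon's test. Chance alone gives about 1 in 20 groups, or 5.2 here.

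P4ha1 had a polysomal log2 CPM of 6.7853 in NoASP shSCR replicate 2, against 6.1376 to 6.177 in the other 3 pellets. The mean of the hypoxia list stood apart in the same library, at 6.6684 against 5.8128 to 5.9161. In ASP shSCR replicate 2 it stood apart in both fractions, at 6.9959 against 5.8465 to 5.9137 on polysomes and at 6.7546 against 5.371 to 5.5567 off polysomes. P4hb had a polysomal log2 CPM of 9.5384 in that pellet, below the 9.7857 to 9.8223 of the others. The log2 ratio of P4ha2 was 2.9265 in ASP shDHPS replicate 1, against 0.8128 to 1.1094. In ASP shGRIN2D replicate 1 the log2 ratio of P4ha1 was 1.7434, against 1.1054 to 1.1687, and the sub-polysomal log2 CPM of Plod1 was 2.687, against 3.5104 to 3.6303. The cause of these differences was not tested.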

How the results depend on the processing

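The mean ratios kept their calls for all 8 members under every alternative run, including each pellet left out. No alternative called a member in the ratio under added aspartate or in ASP shGRIN2D. Counts of all genes called were less stable. For the ratio in ASP shDHPS, 37 genes were called, against 0 with RLE scaling, 266 with the filter on counts, 626 with DESeq2, 184 with TMM within each fraction, 0 with only the compared conditions, 0 without all pellets numbered 2 and 0 without ASP shSCR replicates 1 and 2 (both chosen after seeing the data), and 0 to 159 with a pellet left out. DESeq2 called 1 member there. For added aspartate, 1 gene was called in the ratio without ASP shSCR replicates 1 and 2, and DESeq2 called 1 in each fraction. For polysomal levels, ASP shGRIN2D gave 3 genes, against 7 (RLE), 6 (filter), 73 (DESeq2), 0 (only the compared conditions), 1 (without pellets numbered 2), 1 (without ASP shSCR replicates 1 and 2) and 0 to 98 with a pellet left out, and ASP shDHPS gave 30, against 554, 1, 0 and 74 (DESeq2, only the compared conditions, and both sets of pellets left out) and 0 to 304. For sub-polysomal levels, ASP shGRIN2D gave 56, against 224 (DESeq2), 28, 14 and 23 to 64, and ASP shDHPS gave 251, against 651, 73, 22 and 80 to 370. Off polysomes, the filter and DESeq2 each called 1 member per knockdown, Serpinh1 in ASP shGRIN2D and P4ha2 in ASP shDHPS. DESeq2 called 1.69% and 4.91% of the genes to which it gave an adjusted p. The share of genes called off polysomes with the filter is not given here, so its member calls cannot be weighed against it. With a pellet left out, 0 to 1 members were called in ASP shDHPS, where 80 to 370 genes were.

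Signs turned for P4ha1 and P4ha2. The ratio difference of P4ha1 in ASP shDHPS ran from −0.2241 to 0.0866 with a pellet left out and was −0.4609 without ASP shSCR replicates 1 and 2. Its sub-polysomal difference in ASP shGRIN2D was 0.1136 without pellets numbered 2 and 0.1673 without ASP shSCR replicates 1 and 2, and the polysomal difference of P4ha2 in ASP shDHPS was 0.1338 without pellets numbered 2. The causes were not tested.

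Without the pairing of fractions (no replicate block), 0 genes were called for the ratio in ASP shDHPS, and the difference of P4ha1 was 0.0012. The sources give no shared day or batch for pellets of the same number. Deviations of same-numbered pellets from their condition correlated at medians of 0.166 (ratios), 0.358 (polysomal) and 0.249 (sub-polysomal). For different numbers the medians were −0.05, −0.107 and −0.076. The lowest same-number pairs were at −0.27, −0.229 and −0.312. Whether same-numbered pellets shared a batch was not tested. The main fits did not take the numbers as pairs, because the sources do not name them as pairs. Both pellets with high hypoxia genes are numbered 2. With that number as a replicate block, 231 genes were called for the ratio in ASP shDHPS, 27 and 405 for polysomal levels in ASP shGRIN2D and ASP shDHPS, and 195 and 758 for sub-polysomal levels, with 1 member called in each of the latter.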
